A study of Salmo salar with 37 samples.

Results

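Immature salmon testes sampled in early January were compared between males fed a normal ration (NR) and males fed a restricted ration (RR). The comparison used 10 of the 37 arrays of the series, with 1 male per array. Of these males, 6 had received NR (replicates 6 to 11) and 4 had received RR (replicates 6 to 9). The ration was read from the sample titles, because another label field calls all 37 rations normal. Reproductive status and sampling date were read from tokens in the names of the deposited array files, and the token for low 11-ketotestosterone, the main androgen of male fish, was taken as the mark of an immature male.

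All fish were Atlantic salmon (Salmo salar) of about 2 years that had been at sea since May, and total testis RNA was hybridized to a one-color cGRASP oligonucleotide array. NR fish could eat freely every day, and RR fish were given that daily ration on Mondays, Wednesdays and Fridays only. Each ration was given in a sea cage of its own, so that ration and cage cannot be told apart. Males with more advanced germ cells than type A spermatogonia had been excluded by the study on histology. The p-values of the January comparison measure the spread between these 10 males, and hold no spread between cages. Those of other fits measure the spread between the males of each fit.

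In the immature testis, type A spermatogonia rest or divide singly in the care of Sertoli cells, and Leydig cells between the tubules make androgen. Puberty starts with proliferation of both cell types under the control of pituitary follicle-stimulating hormone and local growth factors, and feeding and energy stores are known to influence whether a male salmon enters it. Interferon-induced genes form the antiviral program of vertebrate cells, which starts when RNA sensors such as RIG-I activate interferon regulatory factors.

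Descriptions of genes were available only for the 1974 probes (of 43689) that appear in the study's lists of differentially expressed probes. Those lists, except that of maturing males alone, were selected on arrays that include these 10. The gene groups below draw on all the lists, so that they are not independent evidence of their direction. In whole testis RNA, fewer cells of a type and less RNA per cell cannot be told apart. No described probe was used as a marker of germ cells or Sertoli cells. Probes described as testis-specific tubulin alpha chain and testis isozyme of creatine kinase differed by -0.41 and -0.63 (RR minus NR, adjusted p = 0.125 and 0.124, limma). The probe for zona pellucida sperm-binding protein 4, whose description names no testis form, differed by 0.66 (adjusted p = 0.167, limma). Both probes for 3 beta-hydroxysteroid dehydrogenase, a steroidogenic enzyme of Leydig cells, lay above background on each of the 10 arrays, and one of them (CUST_17400_PI417904088) had a mean normalized log2 signal of 11.33 in NR and 10.72 in RR males.

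Between 34857 and 40672 probes per NR array and between 35439 and 41183 per RR array were well above background, and no spot was saturated. The median processed log2 intensity was 7.84 to 8.14 in NR and 8.15 at most in RR replicates 6, 8 and 9, and reached 8.78 in RR replicate 7, the only one of the 10 arrays scanned on the second scan day. The mean of this median was 0.24 higher in RR males (exact permutation test, two-sided, p = 0.124), and the number of probes above background gave p = 0.824 in the same exact test, where 210 splits allow no p below 0.00476. Neither difference passed the threshold. The median background signal was 29 to 30 in NR males, 36, 33 and 34 in RR replicates 6, 7 and 9, and 26 in RR replicate 8. It gave p = 0.152 in the same exact test, and the number of outlier spots gave p = 0.757. The part of background in the values of dim probes was not tested. Within a ration, arrays correlated with r of 0.975 to 0.988 (NR) and 0.972 to 0.981 (RR), and no pair was identical. Leaving out RR replicate 7 leaves the arrays of scan day 1 alone.

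Of 39779 probes tested, 1 was differentially expressed between RR and NR testes at the thresholds of the study (adjusted p below 0.01, fold change above 1.5, limma with Benjamini-Hochberg adjustment, 0.00251% of the probes). At a looser threshold, adjusted p below 0.05 with the same fold limit, 117 probes passed (0.294%). A figure legend of the study instead gives p below 0.01, a false discovery rate below 0.05 and a fold change above 1.5. All 117 also had an unadjusted p below 0.01 and so met the limits of that legend. RR males had the higher signal for 71 (0.178%) and the lower signal for 46 (0.116%). Some of the 46 were dim and kept by the filter mainly through NR arrays. CUST_26557_PI417904088 and CUST_16022_PI417904088 were well above background on 5 NR and 2 RR arrays, and CUST_29189_PI417904088 on 4 NR and 1 RR array. The number of 117 depended on single males. It was 1 on scan day 1 alone, with RR replicate 7 left out, and 1 without RR replicate 9, and this was the same probe. It was 3 without RR replicate 6, NR replicate 9 or NR replicate 11, and 31, 11 and 17 without NR replicates 6, 8 and 10. Without NR replicate 7 it was 270, and without RR replicate 8 it was 286. Each probe named below as past the looser threshold, other than the 1 probe above, thus did not pass on scan day 1 alone. An unadjusted p below 0.05 was found for 7946 probes (20% of those tested, with 13% lower and 6.95% higher in RR males), and for 5985 on scan day 1 alone.

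The differentially expressed probe, CUST_11309_PI417904088, has no description. Its normalized log2 signal ran from 8.27 to 8.57 in the NR males (median 8.34), and was 9.70, 9.85, 9.73 and 9.99 in RR replicates 6, 7, 8 and 9. The groups lay far apart, with a gap of more than 1 log2 unit between the highest NR and the lowest RR male. The difference of 1.45 (standard error 0.09) is a fold change of 2.73, with an adjusted p of 0.000572 (limma). Leaving out each male in turn gave adjusted p-values between 0.000929 and 0.00697, the highest without RR replicate 7. Fitted together with all 37 arrays, its difference was 1.42 with an adjusted p of 0.247. In that fit the spread is shared with groups in which the probe varied widely. On the scale of all arrays its SD was 0.12 in January NR and 0.13 in January RR, but 1.57 in December RR and 0.65 in late January RR males. The next probe by p, at an adjusted p of 0.0114, lay just outside the threshold.

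**Figure D1:**
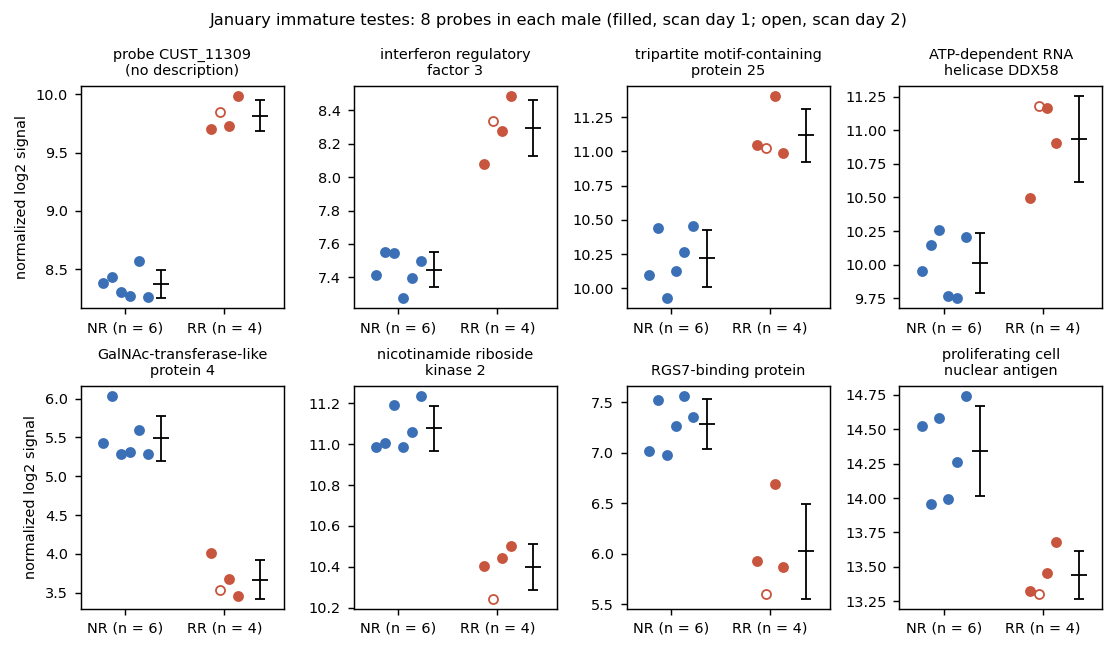
Normalized log2 signal (y axis, a scale of its own in each panel) of 8 probes in the 6 NR (blue) and 4 RR (red) January males, with the mean and SD of each group as bars and RR replicate 7, scanned on the second day, as an open circle. In all 8 panels the groups do not overlap, and the open circle lies with the other RR males.

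Of the 18 described probes among the 117, 7 were higher in RR males, and 5 of these 7 are members of the antiviral list. In 2 of them the probe reads interferon regulatory factor 3, the transcription factor that turns on type I interferon after RNA sensors are triggered. For the first (CUST_20869_PI417904088), NR males had log2 signals of 7.27 to 7.55 (median 7.45), and RR replicates 6 to 9 had 8.08, 8.33, 8.28 and 8.49. It was higher by 0.85 (standard error 0.09, adjusted p = 0.0178, limma), a fold change of 1.80 with no overlap between the groups, and by 0.84 on scan day 1 alone (adjusted p = 0.11). The second (CUST_18686_PI417904088) was at 8.81 to 9.21 in NR (median 9.05) and at 9.59, 9.91, 10.20 and 9.82 in RR males. Again every RR male was above every NR male, with a difference of 0.84 (standard error 0.13, adjusted p = 0.0401, and 0.121 on scan day 1 alone, limma).

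Upstream of this factor, the RNA helicase DDX58 (RIG-I), a sensor of viral RNA in the cytosol, had signals of 9.75 to 10.26 in NR males (median 10.05) and of 10.50, 11.18, 11.16 and 10.90 in RR males. The difference was 0.92 (standard error 0.16, adjusted p = 0.0461, and 0.148 on scan day 1 alone, limma), and the groups did not overlap. Tripartite motif-containing protein 25, a ubiquitin ligase that activates RIG-I in mammals, was at 9.93 to 10.46 in NR (median 10.20) and at 11.05, 11.02, 11.41 and 10.99 in RR males. RR replicate 8 was the highest and the other 3 RR males lay within a narrow range above all NR males. The difference was 0.90 (standard error 0.13, adjusted p = 0.034, and 0.116 on scan day 1 alone, limma). Tripartite motif-containing protein 16, another member of the family, differed by 0.95 (CUST_27282_PI417904088, adjusted p = 0.034, and 0.116 on scan day 1 alone, limma), with RR replicate 8 again highest at 11.89 and the other RR males at 11.36 to 11.44. A second probe for this protein differed by 0.79 and did not pass (adjusted p = 0.0654, limma). The first probe for protein 16 and the probe for protein 25 varied together, and ranked the NR males in the same order. Their calls are thus not separate measurements, and whether they read the same transcript was not tested. Zinc-binding protein A33, a tripartite motif protein that is not on the antiviral list, had the largest difference of a described probe in this direction, 1.46 (standard error 0.26, adjusted p = 0.0477, and 0.151 on scan day 1 alone, limma), from 6.67 to 7.84 in NR to 8.57, 9.10, 9.28 and 8.44 in RR males.

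The antiviral list holds 21 probes, and all 21 were tested. Of these, 5 passed the looser threshold, all higher, against 0.178% of all probes, and none passed on scan day 1 alone. At an unadjusted p below 0.05, 11 were higher and 0 lower, on all arrays and again on scan day 1 alone. Over all probes, 6.95% were higher and 13% lower on all arrays. On scan day 1 alone, 2164 of all 39779 probes were higher and 3821 lower. In 9 of the 21 every RR male was above every NR male, against 1.98% of all probes. The members all come from the study's lists, which, except that of maturing males alone, were selected on arrays that include these males. These shares are thus not independent of that choice. The median difference of the list was 0.60, and -0.05 over all probes tested. Without RR replicate 7 the median was 0.49, and leaving out single males moved it between 0.49 and 0.81. The summed signal of the list was 29446 to 36104 in NR and 42669 to 49277 in RR males, without overlap.

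The remaining members of this list did not pass either threshold. The helicase PRIC285, an interferon-induced protein of the peroxisomal proliferator-activated receptor A-interacting complex, showed a difference of 1.32 (standard error 0.25, adjusted p = 0.0537, limma) with RR values of 10.10, 10.92, 10.75 and 10.38 against 8.70 to 10.01 in NR. Interferon-induced protein 44 had 1.25 (adjusted p = 0.0951) and the interferon-induced GTPase Mx 0.78 (adjusted p = 0.0777), each without overlap between the groups. Mx was tight in the RR males, at 12.47 to 12.57, and ranged from 11.44 to 12.37 in the NR males. Signal transducer and activator of transcription 1 and 2, which carry the interferon signal to the nucleus, differed by 0.21 and 0.19 (adjusted p = 0.28 and 0.485, limma), and their groups overlapped. Interferon regulatory factor 7 had 0.43 (adjusted p = 0.147), and the double-stranded RNA-activated protein kinase -0.04 (adjusted p = 0.787).

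Markers of blood and immune cells were set beside these values. Of the 20 immune cell probes, 0 passed the looser threshold, their median difference was 0.07 (-0.01 without RR replicate 7), and their summed signal was 36791 to 53854 in NR and 48877 to 54629 in RR males. The 2 probes for T-cell receptor alpha chains, part of the antigen receptor of T lymphocytes, differed by 0.15 and 0.33 (adjusted p = 0.633 and 0.671, limma). Perforin-1, a protein of cytotoxic lymphocytes, had -0.56 and sialoadhesin, a macrophage receptor, -0.28 (adjusted p = 0.173 and 0.47). Galectin-9, a lectin of immune and other cells, had 0.54 with an adjusted p of 0.0467 but did not reach the fold limit. The part of immune cells in the antiviral result was not tested.

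**Figure D2:**
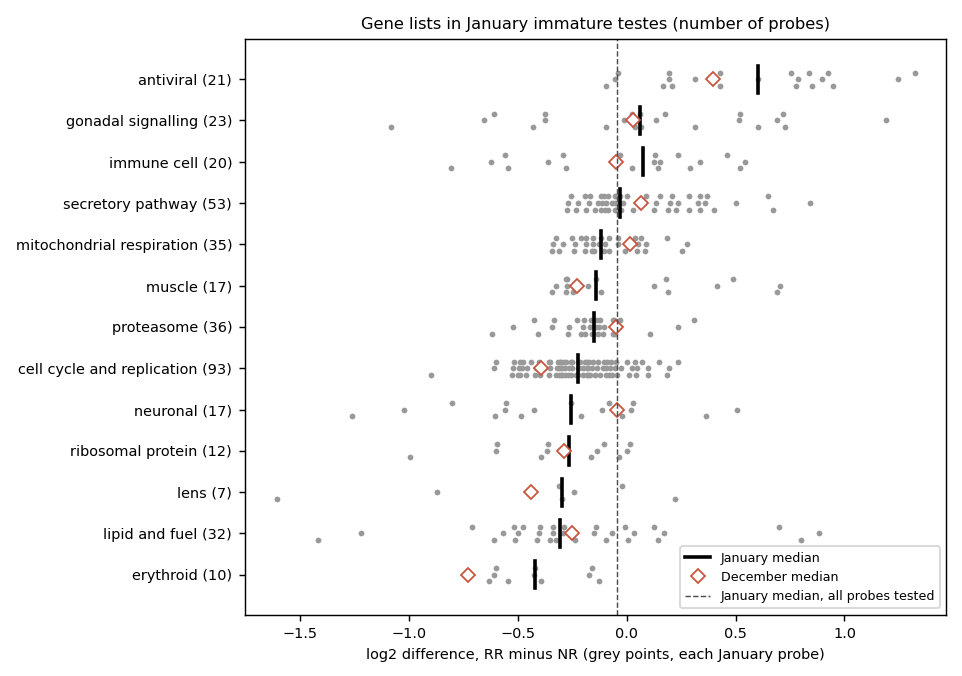
Log2 difference of RR minus NR (x axis) for each tested January probe (grey points) of 13 gene lists (y axis, number of probes in brackets), with the January median of the list (black bar), its December median (open diamond) and the January median of all probes (dashed line). The antiviral median lies to the right at 0.60, and the erythroid median farthest to the left at -0.42 in January and -0.73 in December.

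Among the 11 described probes that were lower in RR males at the looser threshold, the largest difference belonged to putative polypeptide N-acetylgalactosaminyltransferase-like protein 4, of the enzyme family that starts O-linked glycosylation. Its log2 signal was 5.28 to 6.03 in NR (median 5.37) and 4.01, 3.53, 3.67 and 3.46 in RR males. The difference was -1.82 (standard error 0.17, adjusted p = 0.0114, and 0.0977 on scan day 1 alone, limma), and the groups did not overlap. This probe was dim, being well above background on all 6 NR but only 2 of 4 RR arrays. The NR arrays alone were enough for it to be kept by the filter. After normexp background correction its difference was -0.53 (adjusted p = 0.0245, limma), which is below the fold limit.

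Nicotinamide riboside kinase 2, which makes the NAD precursor nicotinamide mononucleotide, was at 10.98 to 11.23 in NR males (median 11.03) and at 10.40, 10.24, 10.45 and 10.50 in RR males. The difference of -0.68 (standard error 0.09, adjusted p = 0.0277, and 0.11 on scan day 1 alone, limma) came with SDs of 0.11 in both groups. Aspartate aminotransferase of the cytoplasm, an enzyme of the malate-aspartate shuttle, was lower by a similar size, -0.65 (standard error 0.11, adjusted p = 0.0401, and 0.125 on scan day 1 alone, limma), from 9.76 to 10.21 in NR to 9.23, 9.34, 9.38 and 9.59 in RR males. Putative adenylate kinase-like protein C9orf98 homolog, of a family that balances adenine nucleotides, had -0.76 (adjusted p = 0.0461, and 0.139 on scan day 1 alone, limma). Its RR values of 9.13, 9.16, 9.49 and 8.85 were all below the lowest NR male at 9.71.

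Others of this group act on chromosomes or transcription. The acetyltransferase ESCO1, which acetylates cohesin and so holds sister chromatids together, was at 12.74 to 13.23 in NR (median 12.99) and at 12.16, 12.09, 12.46 and 12.23 in RR males. The difference was -0.77 (standard error 0.11, adjusted p = 0.0401, limma). Transcription factor-like 5 protein, a basic helix-loop-helix factor of male germ cells in mammals, differed by -0.74 (standard error 0.10, adjusted p = 0.032, limma), and RR values of 9.61 to 9.89 lay below the NR range of 10.23 to 10.73. General transcription factor II-I repeat domain-containing protein 2 had -0.79 (adjusted p = 0.0401, limma), with RR replicate 9 at 9.33, the lowest RR male at 8.94 and the lowest NR male at 9.65. On scan day 1 alone the differences of these probes were -0.72, -0.74 and -0.78, with an adjusted p of 0.117 to 0.121 (limma).

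Further probes lower in RR males were a Tcb2 transposase, encoded by a transposable element, at -1.25 (adjusted p = 0.0314, and -0.59 after normexp background correction), Armadillo repeat-containing protein 4, needed to attach dynein arms in motile cilia, at -0.81 (adjusted p = 0.0401), and TRIO and F-actin-binding protein, an organizer of actin bundles, at -0.66 (adjusted p = 0.0477, all limma). On scan day 1 alone their adjusted p was 0.117, 0.121 and 0.148. Transcription factor 4, an E protein, was the described probe with the smallest difference past the looser threshold in the other direction, at 0.61 (adjusted p = 0.0461, and 0.147 on scan day 1 alone, limma). Its RR values were 10.53, 10.59, 10.24 and 10.68, and the NR males reached 10.05 at most. DnaJ homolog subfamily C member 16, a co-chaperone, and thrombospondin-4, a matrix glycoprotein, were among the 10 described probes of lowest p and higher in RR but did not pass, with differences of 0.65 and 0.93 (adjusted p = 0.0586 and 0.0548, limma).

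Genes of neurons gave the only other functional list with a probe past the looser threshold, 1 of 17, and that probe was lower in RR males (0.116% of all probes). On scan day 1 alone 0 of the 17 passed. Regulator of G-protein signaling 7-binding protein, which anchors a brain regulator of G proteins at the membrane, was at 6.98 to 7.56 in NR (median 7.31) and at 5.92, 5.61, 6.69 and 5.87 in RR males. RR replicate 8 was closest to the NR males, and RR replicate 7 was farthest from them. The difference was -1.26 (standard error 0.21, adjusted p = 0.0401, and 0.125 on scan day 1 alone, limma), and -0.72 after normexp background correction. A second probe for the same protein had -0.21 (adjusted p = 0.306), with overlap. High affinity choline transporter 1, which feeds acetylcholine synthesis in nerve endings, showed -1.02, the calcium-dependent secretion activator 1 of neurosecretory vesicles -0.80, and synaptophysin, a synaptic vesicle protein, -0.60, none passing (adjusted p = 0.0715, 0.0715 and 0.0673, limma) but none overlapping between rations. Neurofilament light polypeptide went the other way, at 0.36 (adjusted p = 0.614). In all, 4 of the 17 did not overlap and were lower, against 4.46% of all probes, and the median of the list was -0.26. The mean log2 signal of the list was 8.91 to 9.08 in NR and 8.51 to 8.75 in RR males, without overlap.

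Genes of DNA replication and the cell cycle, which mark dividing cells, gave no probe past the looser threshold out of 93. Of these 93 probes, 80 had a difference below 0 and 13 above. At an unadjusted p below 0.05, 31 were lower and 1 was higher, against 13% lower and 6.95% higher over all probes. On scan day 1 alone 18 were lower and 1 higher, against 3821 lower and 2164 higher of all 39779 probes. The median difference was -0.23. Proliferating cell nuclear antigen, the sliding clamp of DNA polymerase, had the largest difference of the list at -0.90 (standard error 0.17, adjusted p = 0.0537, limma). NR males had 13.95 to 14.74 (median 14.39), and RR males 13.33, 13.31, 13.46 and 13.68. A second probe for the same protein differed by only -0.15 (adjusted p = 0.486), and its groups overlapped. The licensing factor mcm6-B showed -0.52 (adjusted p = 0.0528), the mitotic kinase cell division control protein 2 -0.60 (adjusted p = 0.167), and 2 probes for the proliferation antigen KI-67 0.05 and 0.15 (adjusted p = 0.901 and 0.674, limma). The NR males varied more than the RR males in this list, with a mean log2 signal of 9.38 to 9.86 against 9.36 to 9.46. Of 1140 probes that the study lists as higher in maturing testes, which share members with this list, 933 (81.8%) had a difference below 0, against 58.2% of all probes, with a median of -0.17. Only 1 of them passed the looser threshold, lower (0.0877%, against 0.116% of all probes). How far the immature males of the rations differed in their progress towards puberty was not tested.

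Lipid and fuel genes had a median difference of -0.31 over 32 probes, 0 of which passed the looser threshold, with 11 lower and 3 higher at an unadjusted p below 0.05, against 13% lower and 6.95% higher over all probes. Glycerol-3-phosphate acyltransferase-like protein 1, of the family that starts glycerolipid synthesis, had an adjusted p of 0.0352 but a difference of -0.51, below the fold limit. The NR males had a median of 12.09 and reached 12.25, and the RR males had 11.61, 11.57, 11.62 and 11.64, without overlap. Sterol regulatory element-binding protein 1, a regulator of lipid synthesis genes, was also separated between rations, at 15.91 to 16.21 in NR and 15.37 to 15.70 in RR, with a difference of -0.52 (adjusted p = 0.0501, limma). Lipoprotein lipase, which releases fatty acids from plasma lipoproteins, had -1.22 (standard error 0.31, adjusted p = 0.0894), from 10.03 to 11.57 in NR to 9.21, 9.83, 9.74 and 9.90 in RR males. The adipocyte fatty acid-binding protein, a marker of fat cells, had -0.61 (adjusted p = 0.0707), while diacylglycerol O-acyltransferase 1, which completes triglyceride synthesis, had 0.80 (adjusted p = 0.102) and aquaporin-3, a glycerol channel, 0.88 (adjusted p = 0.112). The part of fat cells in these values was not tested.

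Erythroid genes were split by a single male. Their mean log2 signal was 12.90 to 13.60 in the NR males and 12.46, 12.64 and 12.66 in RR replicates 6, 7 and 8, but 13.68 in RR replicate 9. Thus 3 RR males were below and 1 was above all NR males. For hemoglobin subunit beta (CUST_517_PI417904088), the oxygen carrier of red blood cells, the RR values were 14.39, 14.35, 14.51 and 16.46, and the NR males had 14.84 to 16.13. None of the 10 probes passed, and all 10 differences were below 0, against 58.2% of all probes. The median of -0.42 became -0.79 without RR replicate 9. Transferrin receptor protein 1, which imports iron, did not follow this split, being at 6.67 to 6.96 in the RR and 7.15 to 7.69 in the NR males (difference -0.61, adjusted p = 0.0654, limma). The amount of blood in the samples was not measured, and its part in these values was not tested.

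Among 23 probes for gonadal signalling and steroid synthesis, 0 passed the looser threshold and the median difference was 0.06. Noggin-3, a binding protein that blocks bone morphogenetic proteins, was the highest at 1.19 (standard error 0.28, adjusted p = 0.0747, limma). It was at 11.07 to 12.65 in NR and at 12.82, 12.68, 12.65 and 13.17 in RR males, so that only RR replicate 8 met the NR range. Insulin-like growth factor I, a growth factor that stimulates spermatogonia, had 0.52 (adjusted p = 0.0783) with RR males at 5.75 to 6.19 and NR males at 5.10 to 5.62, and the Wnt receptor frizzled-8 had 0.31 (adjusted p = 0.0642). The steroidogenic 3 beta-hydroxysteroid dehydrogenase showed -0.61 and -0.66 in its 2 probes (adjusted p = 0.25 and 0.321), and its groups overlapped. Probes for the pituitary gonadotropin subunits beta-1 and beta-2 showed 0.61 and -1.08 (adjusted p = 0.271 and 0.387, limma), both with overlap.

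The other lists held no probe past the looser threshold. The median difference was -0.03 for 53 probes of the secretory pathway, -0.12 for 35 of mitochondrial respiration, -0.14 for 17 of muscle, -0.15 for 36 of the proteasome, -0.27 for 12 ribosomal proteins and -0.30 for 7 lens probes. In the proteasome list, whose members form the complex that degrades tagged proteins, 33 of 36 differences were below 0, against 58.2% of all probes. Gamma-crystallin M2, a lens protein, had -1.61 (standard error 0.47, adjusted p = 0.115, limma), with RR replicate 8 inside the NR range.

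The study's list for immature males was chosen on these and other immature males, and serves here as a description only. Of its 47 probes higher in RR, all 47 had a difference above 0 in January, with a median of 0.67, and 5 passed the looser threshold (0.178% of all probes). Of its 6 probes lower in RR, all 6 were below 0, with a median of -0.70, and 3 passed (0.116% of all probes), namely ESCO1, the adenylate kinase-like protein and aspartate aminotransferase. On scan day 1 alone the medians were 0.68 and -0.68, and no probe of either list passed.

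The 10 arrays lay on 5 slides, of which 2 held both rations, one with NR replicates 7 and 8 and RR replicate 8, the other with NR replicate 10 and RR replicates 6 and 9. Values within these slides are given with no test, and for probes whose rations do not overlap the sign within a slide is fixed. CUST_11309_PI417904088 differed by 1.36 and 1.27, the first probe for interferon regulatory factor 3 by 0.73 and 0.89, and nicotinamide riboside kinase 2 by -0.65 and -0.60. The mean of the antiviral list differed by 0.62 and 0.61, that of the cell cycle list by -0.23 and -0.13, and that of the erythroid list by -0.59 and 0.04, so that only the last of these lists changed sign between the slides. With slide as a random block, 104 probes passed the looser threshold.

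Most of the 117 probes, 99, have no description. Within the 71 higher ones a large block shared a single profile. CUST_21373_PI417904088, chosen after its values were seen, served as the reference, and 39 probes, itself included, correlated with it at r of 0.95 or more, both over the 10 January males and over all 37 males. Of these 39, 0 have a description and 29 are among the 71. Their differences ran from 1.33 to 2.14 (median 1.94), with adjusted p-values of 0.0401 to 0.0747 (limma). The mean log2 signal over the 39 was 11.57, 13.17, 12.50, 11.92, 12.10 and 12.68 in NR replicates 6 to 11 and 13.98, 14.80, 14.37 and 13.63 in RR replicates 6 to 9. Every RR male was above every NR male, but the NR males spread over more than 1 log2 unit. Any pair of the 39 correlated with r of at least 0.938, so that their calls are not separate measurements. Without RR replicate 7 their differences were 1.21 to 1.88, with adjusted p-values of 0.121 to 0.198 (limma). Whether these probes read the same transcript was not tested. The largest difference among the 117 was found for another undescribed probe, CUST_39444_PI417904088, at 2.39 (standard error 0.40, adjusted p = 0.0431, and 0.139 on scan day 1 alone, limma), with 5.47 to 6.95 in NR and 8.87, 9.32, 7.41 and 9.24 in RR males.

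**Figure D3:**
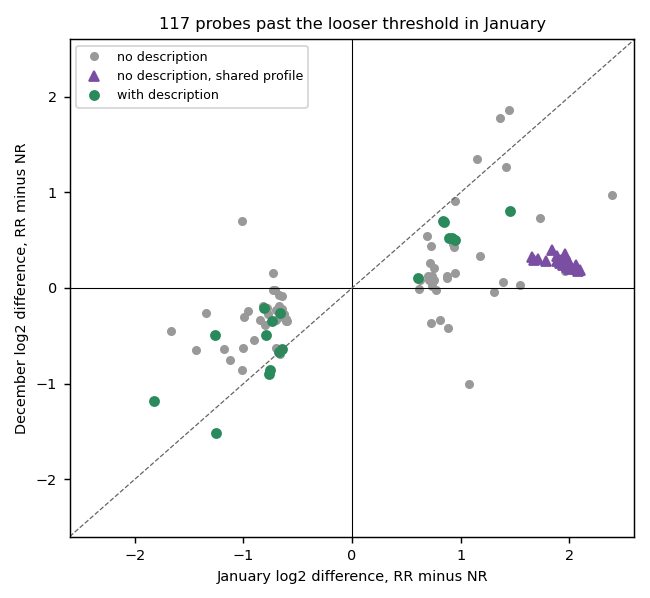
Log2 difference of RR minus NR in January (x axis) and in December (y axis) for the 117 probes past the looser threshold in January, with a dashed line of equal differences. The 29 undescribed probes with the shared profile among them (triangles) lie between 1.66 and 2.10 in January and between 0.17 and 0.39 in December. The 18 described probes are drawn in green.

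The December males, 5 NR and 5 RR of the same immature class, shared no male with the January comparison and gave 0 probes past either threshold in limma. At an unadjusted p below 0.05, 2203 probes differed there (5.41%, with 3.04% higher and 2.38% lower), and the rations did not overlap for 0.622% (higher) and 0.359% (lower) of the probes. All 117 January probes were tested there. The sign was the same for 108 of them (92.3%), against 54.0% of 39678 probes tested at both dates. It was the same for 79 of the 88 outside the shared profile, and for 90 of the 99 without a description. Of the 70 probes that were both undescribed and outside the shared profile, 61 had the same sign. The 18 described probes are described because the study listed them, on arrays that can include the December males, so that their December sign is not independent of the choice. The differences were mostly smaller. The median of the 71 higher probes was 1.41 in January and 0.26 in December, that of the 42 outside the shared profile was 0.88 and 0.17, and that of the 46 lower ones was -0.76 and -0.34.

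For the antiviral probes that passed the looser threshold, 4 of which are on the study's list for immature males, December values are a description only. The first probe for interferon regulatory factor 3 differed by 0.69 in December (adjusted p = 0.827), DDX58 by 0.52, tripartite motif-containing protein 25 by 0.52 and protein 16 (CUST_27282_PI417904088) by 0.50. Aspartate aminotransferase and nicotinamide riboside kinase 2 had nearly the same differences at both dates, -0.65 and -0.68 in January and -0.63 and -0.67 in December. Neither passed in December (standard errors 0.26 and 0.42, adjusted p = 0.827 for both, limma). The aminotransferase is on the study's list for immature males, so that its December value is a description only. The undescribed CUST_11309_PI417904088 differed by 1.86 in December (standard error 0.63, adjusted p = 0.827, limma), where the RR males had an SD of 1.58. The December median was 0.40 for the antiviral list, -0.40 for the cell cycle list, -0.04 for the neuronal list and -0.73 for the erythroid list. On the scale of all arrays, the December cell cycle level was 8.93 and 8.96 in RR replicates 3 and 4. RR replicates 1, 2 and 5 were at 10.23, 10.17 and 9.97, within the NR range of 9.34 to 10.34. NR replicate 5 alone set the low end of that range, and the other NR males were at 10.13 to 10.34. The December erythroid level was lowest in RR replicate 4, at 11.88. RR replicates 2 and 3 were at 13.34 and 13.16, below the NR range of 13.43 to 13.96, and RR replicates 1 and 5 were within it.

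The difference between the dates was tested in a fit of the 20 males. No probe had a January effect that differed from the December effect in limma at either threshold, and 3809 did at an unadjusted p below 0.05 (9.48% of 40179 probes, with 3.29% more positive and 6.19% more negative in January). PRIC285 had the lowest unadjusted p of the antiviral list, with a January effect larger by 0.84 (standard error 0.29, unadjusted p = 0.00972, adjusted p = 0.462). Thrombospondin-4 was higher in January RR males but lower in December RR males (0.93 and -0.31), a difference of 1.24 (standard error 0.40, adjusted p = 0.461, limma). For the 39 probes with the shared profile, December differences were 0.14 to 0.39, and the adjusted p of the difference between dates was 0.461 to 0.536. All 10 December arrays were scanned on day 2 and 9 of the 10 January arrays on day 1, so that date and scan day cannot be told apart.

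**Figure D4:**
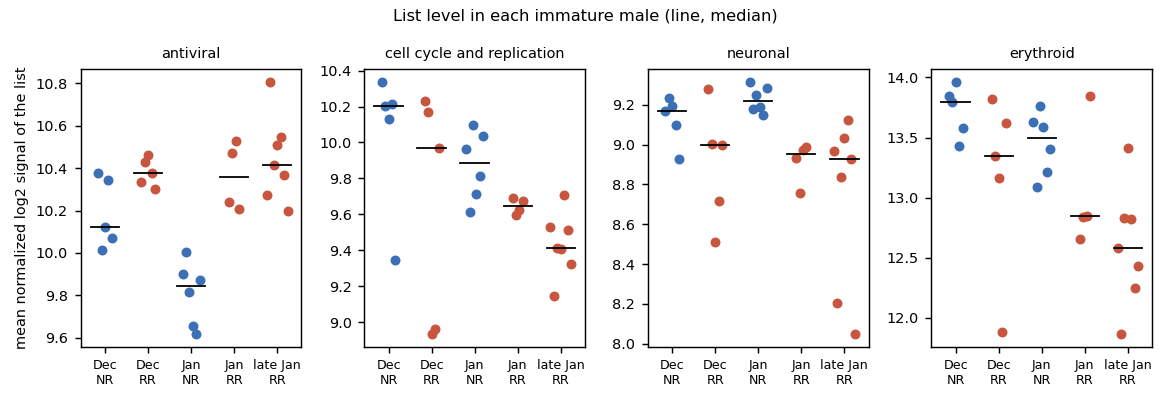
Mean normalized log2 signal (y axis, quantile normalized over all 37 arrays) of 4 gene lists in each immature male (points, NR blue, RR red) at each date (x axis), with the median of each group as a line. The January NR males lie lowest in the antiviral panel, with a median of 9.84, and 1 RR male stands above the other January RR males in the erythroid panel.

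The 7 immature RR males of late January, for which no NR males were analysed, are given as values only. On the scale of all 37 arrays their antiviral level was 10.20 to 10.81 (median 10.41), next to 10.21 to 10.53 in the early January RR males (median 10.36) and a median of 9.84 in the early January NR males. The first probe for interferon regulatory factor 3 was at 8.62 ± 0.18 (SD, n = 7) in late January, 8.53 ± 0.16 (SD, n = 4) in early January RR and 7.71 ± 0.10 (SD, n = 6) in early January NR males. Nicotinamide riboside kinase 2 was at 10.53 ± 0.35 (SD, n = 7), 10.61 ± 0.11 (SD, n = 4) and 11.29 ± 0.11 (SD, n = 6) in the same order. For both probes the late January RR males had a mean close to that of the early January RR males, but not all named probes held that level. In the same order, CUST_11309_PI417904088 had means of 9.19 (SD 0.65), 10.03 (SD 0.13) and 8.61 (SD 0.12). For CUST_21373_PI417904088 they were 12.22 (SD 1.02), 13.52 (SD 0.53) and 11.41 (SD 0.68). The late January mean of each lay between the early January means of the rations. The Tcb2 transposase had means of 3.59, 5.41 and 6.61, lowest in late January. The cell cycle level of late January was 9.15 to 9.71, with a median of 9.41 against 9.65 in early January RR males.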

How the data were processed

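Each of 37 males gave testis RNA for 1 one-color array, which held 43689 probes after 1417 control spots were removed. The deposited intensity values, background-corrected within each array, were made by the authors with Agilent Feature Extraction 10.7.1.1 (submitters' processing notes). The deposited value table holds the authors' log2 of the background-subtracted signal, not normalized between arrays, and served as an alternative. The log2 processed signals of the 10 arrays were quantile normalized, a probe was kept if 5 or more of the arrays detected it well above background, and limma 3.58.1 (R 4.3.3) was fitted with Benjamini-Hochberg adjustment over all probes tested and no covariate. A call needed a fold above 1.5 together with an adjusted p below 0.01, or below 0.05 for the looser threshold. The scripts were tested on simulated data.

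Named probes were those past the thresholds, the 10 described probes of lowest p and fold above 1.5 in each direction, members of the gene lists, and undescribed extremes chosen after their values were seen. Members and lists were chosen with earlier results of these data known. Descriptions came from the study's lists, and 0 of 112 probes with RefSeq accessions matched the RefSeq table. Alternatives were the scaling, background correction (normexp, offset 50), filter, value table, scan day, slide, array weights, all 37 arrays, a replicate block, the methods' t-test and each male left out. Differences within slides were added after seeing the data.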

Additional observations from a re-analysis of the deposited data

Results flagged for a closer look

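In 6 of 72 groups of values checked (8.33%), the male at one end stood apart from the others by Dixon's criterion, which chance meets in about 1 of 20 groups. The gap to the nearest male, as a share of the whole range, was 0.848 for tripartite motif-containing protein 16 (CUST_27282_PI417904088) in RR males, with a highest value of 11.89 and the next at 11.44. It was 0.863 for tripartite motif-containing protein 25 in RR males, where RR replicate 8 was again highest (11.41, next 11.05). For general transcription factor II-I repeat domain-containing protein 2 in RR males it was 0.847, with RR replicate 9 at 9.33. The mean of the erythroid list in RR males gave 0.839, with RR replicate 9 at 13.68 and the next male at 12.66. In NR males, the number of probes well above background gave 0.668 (34857 in NR replicate 10, next 38741), and the mean of the mitochondrial respiration list gave 0.705 (lowest 12.38, next 12.54). RR replicates 6 and 9, on the same slide as NR replicate 10, also had few such probes, 35439 and 37240. Every array on the other slides had 38741 or more. The flags of tripartite motif-containing proteins 16 and 25 are not separate, because their probes varied together. The causes of the flags were not tested.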

How the results depend on the processing

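The count of 1 probe at an adjusted p below 0.01 was 0 with all 37 arrays in 1 fit and 0 with a scan day term added to it. It was 2 with the methods' t-test after Benjamini-Hochberg adjustment. It was 1 to 6 when single males were left out. It is 117 at the looser adjusted p of 0.05. The looser count of 117 was 4 from the authors' value table, 36 with no filter, 253 for probes well above background on all 10 arrays, 11 with all 37 arrays in 1 fit, 0 with a scan day term added, 1 with scan day as a block, 1 on scan day 1 alone and 42 with the methods' t-test. Leaving out single males gave 1 to 286. With 75th percentile scaling the looser calls were split into 67 higher and 17 lower (79.8% higher, against 60.7%), and with normexp background correction into 124 higher and 49 lower (71.7% higher). At an unadjusted p below 0.05, 7946 probes became 4469 with all 37 arrays in 1 fit and 3579 with a scan day term. The causes were not tested. The rations share replicate numbers 6 to 9, but same-numbered males did not deviate together (r = 0.01, 0.20, -0.05 and -0.07), and 1 of 4 RR males correlated best with its own number. With the replicate block, fitted on those numbers, 0 probes passed at either threshold and 5731 had an unadjusted p below 0.05. For the 21 probes followed through the alternatives, 256 values lost the threshold, 217 stayed on their side of it and 9 gained it. Of the list medians, 280 moved by less than the spread between males. The antiviral median was 0.81 without NR replicate 7 and 0.44 with the replicate block, and the neuronal median was -0.36 from the value table. The difference between January and December gave 0 probes under each alternative run. Dim probes, such as N-acetylgalactosaminyltransferase-like protein 4, are limited by signal over background, and 10 males limit the precision of all values.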
